A study of Mus musculus with 17 samples.

Results

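The genes described here are 9 genes of blood clotting, of its brakes and of clot dissolution, measured in microvessels isolated from mouse brain cortex. They are Vwf, Thbd, Procr, Tfpi, F3, F5, F8, Plat and Adamts13. They were chosen by symbol, and all 9 were found among the 42687 genes of the deposited count table. The study compared wild-type (WT) mice with APP/PS1 mice, a transgenic model of Alzheimer's disease, at 10 to 11 months of age. Both genotypes were injected intraperitoneally with a peptide at 10 mg/kg every 2 days for 2 weeks. The peptide was gp91-ds-tat, which blocks the superoxide-producing enzyme NOX2, or its control sgp91-ds-tat, so every group had received a peptide. There were 5 libraries of WT mice given the control peptide, 5 of WT mice given the inhibitor, 2 of APP/PS1 mice given the control peptide and 5 of APP/PS1 mice given the inhibitor. The labels name the groups only as SC and NOX2, and these were read as the control peptide and the inhibitor. The protocol mentions surgery and cortices of one side, and no surgery is described further. The transgene's promoter, the sex of the mice, and whether a library came from 1 mouse or a pool are not stated in the sources used here, so p-values measure only the spread between libraries.

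Coagulation starts when tissue factor, the product of F3, is exposed to blood and activates factor VII, and ends when thrombin turns fibrinogen into fibrin. The endothelium holds this back: Tfpi blocks tissue factor, and thrombomodulin (Thbd) together with the endothelial protein C receptor (Procr) redirects thrombin to activate protein C, which destroys the cofactors factor V (F5) and factor VIII (F8). Von Willebrand factor (Vwf), stored in endothelial Weibel-Palade bodies, tethers platelets and carries factor VIII, Adamts13 cuts its multimers, and tissue plasminogen activator (Plat) starts the dissolution of fibrin.

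Total counts per library ran from 7316503 to 17862965, with a median of 11342154, so that 3 counts stood for 0.174 to 0.390 CPM, the unit of level used below (counts scaled to a common library size). App, the gene the transgene adds to, was at 1897 to 3334 CPM in the 7 APP/PS1 libraries and at 1262 to 2230 CPM in the 10 WT libraries, a log2 difference of 0.69 (two-sided exact permutation test, p = 0.000206). The labelled cell types were present: all 6 endothelial markers passed the filter on low counts, with a summed level of 2009 to 3938 CPM, as did all 5 pericyte markers (946.8 to 1637 CPM) and all 6 astrocyte markers (2952 to 5092 CPM). Neuronal markers also reached 2415 to 4096 CPM and oligodendrocyte markers 1250 to 2292 CPM, so the preparations held RNA of parenchymal cells too. Choroid plexus markers (Ttr, Folr1, Kl, Clic6 and Kcnj13) summed to 29.4 to 8097 CPM, and this spread lay within the groups. In such bulk samples, fewer cells of a type and less RNA per cell cannot be told apart.

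Of the 9 genes, 8 passed the filter on low counts. Adamts13, the protease that cuts von Willebrand factor, had 53 counts in all 17 libraries together, was at 0 in 5 libraries and at 3 counts or fewer in 11. It had 3, 11, 0, 0 and 6 counts in the WT control-peptide libraries, and 0, 2, 1, 0 and 0 in the WT inhibitor libraries. In APP/PS1 it had 10 and 6 counts with the control peptide and 4, 3, 5, 1 and 1 with the inhibitor. At this depth no difference between groups was detectable for it, and it was not tested.

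To compare genes with one another, levels were divided by the length of each gene's exons and are given as CPM per kb. Vwf was highest on this scale, at 32.2 ± 8.77 CPM per kb (mean ± SD over the 17 libraries), above 96.6% of the tested genes. Thbd followed at 28.5 ± 9.46 CPM per kb, above 95.8% of them. Plat at 16.8 ± 5.37 and F3 at 16.4 ± 3.55 CPM per kb were next, and which of these 2 was higher changed from library to library, with Plat above F3 in 7 of 17. F5 averaged 7.69 ± 5.91 CPM per kb. Tfpi averaged 3.38 ± 0.685, Procr 1.84 ± 0.602 and F8 0.902 ± 0.143 CPM per kb, the last above 15.5% of the tested genes. The ranges of neighbours in this order overlapped, except for F8 and Adamts13. Within a library, Vwf exceeded Thbd in 11 of 17, F3 exceeded F5 in 15, F5 exceeded Tfpi in 10, Tfpi exceeded Procr in all 17 and Procr exceeded F8 in 16.

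**Figure D1:**
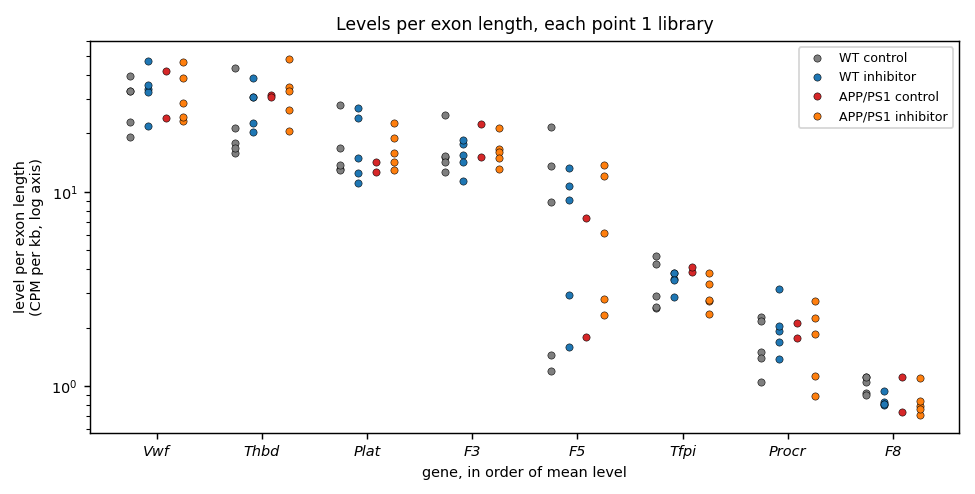
Level of each of the 8 tested genes per exon length (CPM per kb, log axis); each point is 1 library and the colours are the 4 groups. Vwf and Thbd were highest, F8 was lowest, and F5 was the gene whose libraries spread most, 18.0-fold from lowest to highest.

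No difference between groups in any of the 8 genes passed the test. With edgeR's quasi-likelihood test and Benjamini-Hochberg adjustment over all 18753 tested genes at 0.05, 0 of 8 were called in each of 7 comparisons, and 0 of 8 had an unadjusted p under 0.05. The DESeq2 Wald test, run as an alternative, also gave 0 of 8 at either threshold in all 7 comparisons. Read against all genes, the APP/PS1 minus WT comparison over both peptides called 0.587% of genes and had 6.38% at an unadjusted p under 0.05. The same shares were 0.0533% and 3.97% for genotype with the control peptide, and 0.181% and 3.38% for genotype with the inhibitor. The inhibitor comparisons called 0% of genes, with 1.34% at an unadjusted p under 0.05 in WT, 1.8% in APP/PS1 and 2.11% over both genotypes. The interaction of genotype and peptide called 0%, with 0.843% at an unadjusted p under 0.05. A count of 0 among 8 genes is therefore near the background in every comparison. The median log2 change of the 8 genes was -0.043 for genotype over both peptides (3 above 0, 5 below) and 0.073 for the inhibitor over both genotypes (5 above 0, 3 below), against 0.0017 and 0.0038 over all tested genes.

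**Figure D2:**
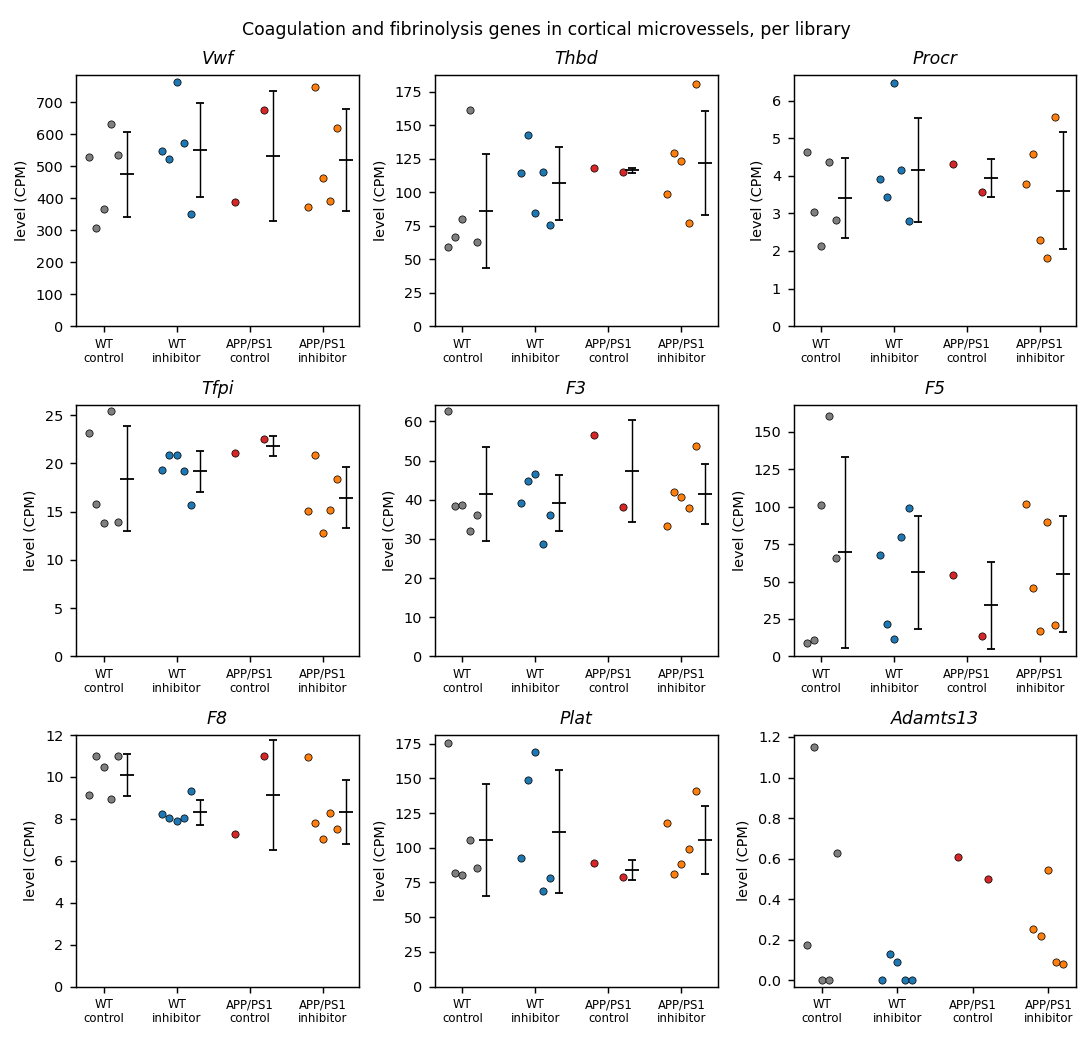
Level of each gene in CPM (linear axis) in the 4 groups; each point is 1 library, and the bar beside them is the mean with its SD (omitted for Adamts13, most of whose libraries hold 3 counts or fewer; the APP/PS1 control group has 2 libraries). In the comparisons of genotype and of peptide the groups overlap for each of the 8 tested genes, except that both APP/PS1 control libraries of Tfpi lie above all 5 APP/PS1 inhibitor libraries.

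F3, tissue factor, lies at chr3:121723537-121735048 on the plus strand (GRCm38). In WT mice it was at 62.6, 38.4, 38.6, 32.1 and 36.1 CPM with the control peptide and at 39.2, 44.7, 46.7, 28.7 and 36.2 CPM with the inhibitor. In APP/PS1 mice it was at 56.6 and 38.2 CPM with the control peptide and at 33.3, 41.9, 40.7, 37.9 and 53.8 CPM with the inhibitor. The groups overlapped, and the highest WT value was a single control-peptide library. The log2 change was 0.12 ± 0.14 (SE) for genotype over both peptides (95% interval -0.17 to 0.41) and -0.13 ± 0.14 for the inhibitor over both genotypes (-0.42 to 0.16). Leaving out 1 library, the genotype change of F3 ran from 0.032 (without APP/PS1 control replicate 1) to 0.19 (without WT control replicate 1), and the inhibitor change from -0.19 (without APP/PS1 control replicate 2) to -0.013 (without WT control replicate 1, the library at 62.6 CPM). Because tissue factor is known as an inducible gene, the 250 bases before its RefSeq start (GRCm38.p6, chr3:121723287-121723536, plus strand) were searched for AP-1 sites, spelled TGANTCA, a spelling that is its own reverse complement. They hold 2 matches, shown in capitals, which begin 146 and 135 bases before the start; the nearer one overlaps a match to the KLF box CACCC that begins 130 bases before it. Such a match is in 6.75% of 32851 windows of this length from RefSeq, and it is a description of the sequence, not evidence that a factor binds there.

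F3 promoter: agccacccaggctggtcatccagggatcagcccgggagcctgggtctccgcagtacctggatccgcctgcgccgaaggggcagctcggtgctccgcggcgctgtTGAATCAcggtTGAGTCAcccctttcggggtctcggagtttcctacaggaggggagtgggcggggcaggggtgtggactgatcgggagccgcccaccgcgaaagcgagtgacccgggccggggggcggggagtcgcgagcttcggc

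Tfpi, the inhibitor of tissue factor and factor Xa, lies at chr2:84432855-84476775 on the minus strand (GRCm38). In WT mice it was at 23.1, 15.8, 13.8, 25.5 and 13.9 CPM with the control peptide and at 19.4, 20.9, 20.8, 19.2 and 15.7 CPM with the inhibitor. In APP/PS1 mice it was at 21.0 and 22.5 CPM with the control peptide and at 15.0, 20.9, 12.8, 15.2 and 18.4 CPM with the inhibitor. Among the 48 sets of a gene and a comparison (8 genes and 6 comparisons of genotype or peptide), the APP/PS1 inhibitor comparison of Tfpi was the one in which the libraries did not overlap, 1 of 8 genes where 4.63% of all tested genes did so in that comparison. There the log2 change was -0.40 ± 0.22 (SE; 95% interval -0.86 to 0.058; edgeR, unadjusted p = 0.0834, adjusted p = 1.00). In WT the log2 change was 0.051 ± 0.17, and the difference between the genotypes was -0.45 ± 0.28 (unadjusted p = 0.121, adjusted p = 1.00 by edgeR), the lowest p of the 8 genes in the interaction. With the inhibitor, the genotype change was -0.22 ± 0.17. Over both peptides and over both genotypes the changes were -0.048 ± 0.14 and -0.12 ± 0.14.

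F8, factor VIII, a cofactor that von Willebrand factor carries in plasma and that endothelium makes, lies at chrX:75172715-75382615 on the minus strand. It was the steadiest of the 8 genes, with a 1.56-fold range and 62 to 173 counts a library. In WT mice it was at 9.14, 11.0, 10.5, 8.93 and 11.0 CPM with the control peptide and at 8.23, 8.04, 7.90, 8.06 and 9.32 CPM with the inhibitor. In APP/PS1 mice it was at 7.28 and 11.0 CPM with the control peptide and at 10.9, 7.82, 7.06, 8.26 and 7.54 CPM with the inhibitor. Only replicate 5 of the WT inhibitor group, at 9.32 CPM, came up into the range of the WT control libraries. The log2 change with the inhibitor was -0.22 ± 0.11 (SE) over both genotypes (95% interval -0.44 to 0.0089; edgeR, unadjusted p = 0.0588, adjusted p = 1.00) and -0.28 ± 0.14 in WT (-0.57 to 0.015; unadjusted p = 0.0619, adjusted p = 1.00), the lowest p of the 8 genes in both. With 1 library left out, the inhibitor change of F8 over both genotypes ran from -0.31 (without APP/PS1 control replicate 1) to -0.16 (without APP/PS1 control replicate 2). The genotype change over both peptides was -0.051 ± 0.11.

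Vwf lies at chr6:125546774-125686679 on the plus strand and was counted with 2930 to 10123 counts a library. It averaged 474 ± 133 CPM (mean ± SD, n = 5) in WT with the control peptide and 551 ± 147 CPM (n = 5) with the inhibitor. In APP/PS1 the 2 control libraries were at 388 and 675 CPM and the inhibitor libraries averaged 519 ± 161 CPM (n = 5). The groups overlapped throughout. The log2 change was 0.0069 ± 0.18 for genotype over both peptides (95% interval -0.38 to 0.39) and 0.12 ± 0.19 for the inhibitor (-0.26 to 0.51).

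F5, factor V, the cofactor of factor Xa, lies at chr1:164151838-164220277 on the plus strand, where an overlapping non-coding gene, Gm16548, shares 262 exonic bases on the other strand; the strand setting of the counting is not stated, so the split of reads there is uncertain. It varied 18.0-fold. In WT mice it was at 8.91, 10.8, 101, 160 and 65.9 CPM with the control peptide and at 67.9, 21.8, 11.8, 80.0 and 98.9 CPM with the inhibitor. In APP/PS1 mice it was at 54.7 and 13.3 CPM with the control peptide and at 102, 45.8, 17.3, 89.6 and 20.9 CPM with the inhibitor. High and low libraries stood in every group, so the group means said little: the log2 change was -0.36 ± 0.59 (SE; 95% interval -1.59 to 0.87) for genotype over both peptides and 0.031 ± 0.59 (-1.19 to 1.25) for the inhibitor. With 1 library left out, the genotype change of F5 ran from -0.61 (without APP/PS1 inhibitor replicate 1) to -0.095 (without APP/PS1 control replicate 2).

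The libraries high in F5 were those with the most choroid plexus RNA. The libraries were split at 5 on a choroid plexus score, the mean log2 CPM of the 5 markers. This boundary was drawn after the values were seen. The score was 6.28 to 8.21 in the 10 libraries above the boundary and 1.80 to 4.72 in the 7 under it. Above it F5 was at 45.8 to 160 CPM and Ttr, the transthyretin gene of choroid plexus epithelium, at 1710 to 7381 CPM; under it F5 was at 8.91 to 21.8 CPM and Ttr at 10.5 to 528.5 CPM. The 10 libraries were 3 of WT control, 3 of WT inhibitor, 1 of APP/PS1 control and 3 of APP/PS1 inhibitor, so they were spread over all 4 groups. Over all 17 libraries, with group means subtracted, F5 correlated with the score at Pearson r = 0.983 and Spearman rho 0.929. The permutation p-values adjusted over 104 relations of a gene and a marker list were 0.00104 and 0.00208. The correlations within the 10 and within the 7 come from the same libraries and the later boundary, so their p-values are descriptive only. Within the 10, F5 correlated with the score at Pearson r = 0.926 (permutation p = 0.00027, adjusted over the pair of sets 0.00054). Spearman rho was 0.818 (permutation p = 0.00549, adjusted 0.011), and r was 0.907 without the 2 libraries farthest from the median score. Within the 7, r was 0.828 (exact permutation p = 0.0109, adjusted 0.0109) and rho 0.857 (exact permutation p = 0.0238, adjusted 0.0238), and r was 0.646 without the 2 farthest libraries. With the score as a covariate, an alternative added after the data were seen, the log2 changes of F5 were -0.13 ± 0.12 for genotype (95% interval -0.38 to 0.13) and -0.13 ± 0.12 for the inhibitor (-0.39 to 0.13); the interval narrowed and still held 0. For each of the other 7 genes the ranges of the 10 and of the 7 libraries overlapped. Over all 17 libraries, with group means subtracted, F3 and Plat had negative correlations with the score. These were r = -0.617 and -0.587 (permutation test, adjusted p = 0.153 and 0.176), and -0.386 and -0.313 without the 2 farthest libraries.

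**Figure D3:**
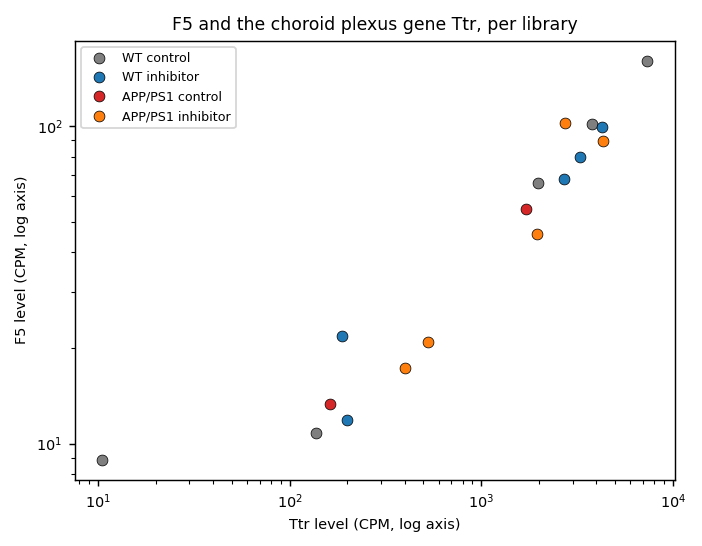
F5 level (CPM, log axis) against the level of the choroid plexus gene Ttr (CPM, log axis); each point is 1 library, coloured by group. The 10 libraries with Ttr at 1710 CPM or above have F5 at 45.8 CPM or above, and the other 7 have F5 at 21.8 CPM or below.

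F5 was the gene that moved most with choroid plexus RNA. The 250 bases before its RefSeq start (GRCm38.p6, chr1:164151585-164151834, plus strand) are shown for that reason. They hold 1 match to the GC box GGGCGG (capitals, beginning 177 bases before the start), which 32.7% of windows hold on either strand, and no match to GGATTA, the core that OTX2 binds, which 6.25% of windows hold.

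F5 promoter: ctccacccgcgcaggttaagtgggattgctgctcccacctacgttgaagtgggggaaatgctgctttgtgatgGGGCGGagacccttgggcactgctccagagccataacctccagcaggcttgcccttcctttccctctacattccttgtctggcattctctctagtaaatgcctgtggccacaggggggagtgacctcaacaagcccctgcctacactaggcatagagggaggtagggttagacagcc

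The genes that most resembled F5 over the 17 libraries, after the group means were subtracted, were Kl (Klotho) with Pearson r = 0.99, Vat1l with 0.99 and Krt18, a keratin of simple epithelia, with 0.99. Kl is one of the 5 choroid plexus markers.

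Thbd, thrombomodulin, the endothelial receptor that turns thrombin from clotting to protein C activation, lies at chr2:148404466-148408188 on the minus strand. In WT mice it was at 59.4, 66.6, 79.9, 161 and 62.8 CPM with the control peptide and at 115, 143, 84.8, 115 and 75.5 CPM with the inhibitor. In APP/PS1 mice it was at 118 and 115 CPM with the control peptide and at 98.9, 129, 124, 77.1 and 181 CPM with the inhibitor. Apart from replicate 4, the WT control libraries were at 59.4 to 79.9 CPM, a range that reached into both inhibitor groups, and replicate 4 at 161 CPM exceeded both APP/PS1 control libraries. For genotype the log2 change was 0.28 ± 0.20 (SE; 95% interval -0.13 to 0.70; edgeR, unadjusted p = 0.172, adjusted p = 0.909), and 0.22 ± 0.20 (-0.20 to 0.64) for the inhibitor. With 1 library left out, these changes ran from 0.18 (without APP/PS1 inhibitor replicate 5) to 0.41 (without WT control replicate 4) for genotype and from 0.13 (without WT inhibitor replicate 2) to 0.42 (without WT control replicate 4) for the inhibitor. With the control peptide alone, the genotype change was 0.44 ± 0.34 (unadjusted p = 0.209, adjusted p = 1.00 by edgeR). It ran from 0.33 without WT control replicate 1 to 0.80 without WT control replicate 4, with an unadjusted p of 0.348 and 0.00621; the lowest adjusted p with 1 library left out was 0.556 by edgeR.

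Thbd moved with endothelial markers across libraries. Against a score of 8 markers of arterial and venous endothelium, Pearson r was 0.854 and Spearman rho 0.804 over the 17 libraries, with group means subtracted (permutation p = 0.00013 and 0.00115; adjusted over 104 relations of a gene and a marker list, 0.00676 and 0.0598). Without the 2 farthest libraries r was 0.785. Against 6 general endothelial markers r was 0.785 (adjusted permutation p = 0.0114; rho 0.659, adjusted 0.122; r = 0.587 without the 2 farthest). The platelet and megakaryocyte list gave r = 0.832 (adjusted permutation p = 0.0302; rho 0.691, adjusted 0.122; r = 0.627 without the 2 farthest), with 3 of its 6 genes past the filter and a summed level of 4.57 to 24.6 CPM. With the endothelial score as a covariate, added after the data were seen, the genotype change of Thbd was 0.33 ± 0.13 (95% interval 0.061 to 0.59; edgeR, unadjusted p = 0.0186, adjusted p = 0.418). Marker correlations that missed the adjusted threshold were seen beyond Thbd and beyond endothelial markers. For Thbd, r was 0.705 with pericyte markers (permutation test, adjusted p = 0.0646), 0.628 with astrocyte markers (adjusted p = 0.0954) and 0.666 with fibroblast markers (adjusted p = 0.153). Against the general endothelial markers, r was 0.737 for Tfpi and 0.707 for Vwf (permutation test, adjusted p = 0.0614 and 0.0646). Against the same markers, Procr, Plat, F3, F8 and F5 had r = 0.637, 0.180, 0.147, -0.297 and -0.0053. Tfpi correlated as highly with fibroblast markers (r = 0.738, adjusted permutation p = 0.106). F3 had r = 0.714 with neuron markers (adjusted permutation p = 0.0614). Apart from the covariate, the part of vessel content in the genotype values was not tested.

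Procr, the endothelial protein C receptor, lies at chr2:155751117-155755471 on the plus strand and had only 20 to 80 counts a library. It averaged 3.40 ± 1.06 CPM (mean ± SD, n = 5) in WT control, 4.16 ± 1.39 CPM (n = 5) in WT inhibitor and 3.61 ± 1.57 CPM (n = 5) in APP/PS1 inhibitor libraries, and was at 4.31 and 3.58 CPM in the APP/PS1 control libraries. The log2 changes were -0.039 ± 0.23 (SE; 95% interval -0.51 to 0.44) for genotype and 0.12 ± 0.23 (-0.36 to 0.59) for the inhibitor, and these intervals show how wide a change this depth leaves undecided. Procr and Tfpi had the highest correlation among the 28 pairs of the 8 genes (r = 0.736, rho 0.716; permutation p = 0.00356 and 0.00668; adjusted over the 28 pairs 0.055 and 0.102), and no pair was under 0.05 after adjustment.

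Plat, tissue plasminogen activator, lies at chr8:22757727-22782844 on the plus strand. In WT mice it was at 176, 82.0, 80.6, 105 and 85.6 CPM with the control peptide and at 92.9, 149, 169, 69.1 and 78.3 CPM with the inhibitor. In APP/PS1 mice it was at 89.3 and 78.9 CPM with the control peptide and at 118, 81.1, 88.6, 98.9 and 141 CPM with the inhibitor. The groups overlapped, and the libraries above 140 CPM stood in 3 of them. The log2 change was -0.17 ± 0.20 (SE; 95% interval -0.59 to 0.24) for genotype and 0.17 ± 0.20 (-0.25 to 0.58) for the inhibitor. With 1 library left out, the genotype change of Plat ran from -0.27 (without WT inhibitor replicate 4) to -0.059 (without WT inhibitor replicate 3), and the inhibitor change from 0.052 (without WT inhibitor replicate 3) to 0.34 (without WT control replicate 1, the library at 176 CPM). F3 and Plat correlated at r = 0.721 and rho 0.507 (permutation p = 0.00393 and 0.0509, adjusted 0.055 and 0.206), and r fell to 0.529 without the 2 farthest libraries. The genes most like Plat in pattern were Maff, an AP-1-related transcription factor (r = 0.96), Klf13 (0.94) and Lgalsl (0.93).

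**Figure D4:**
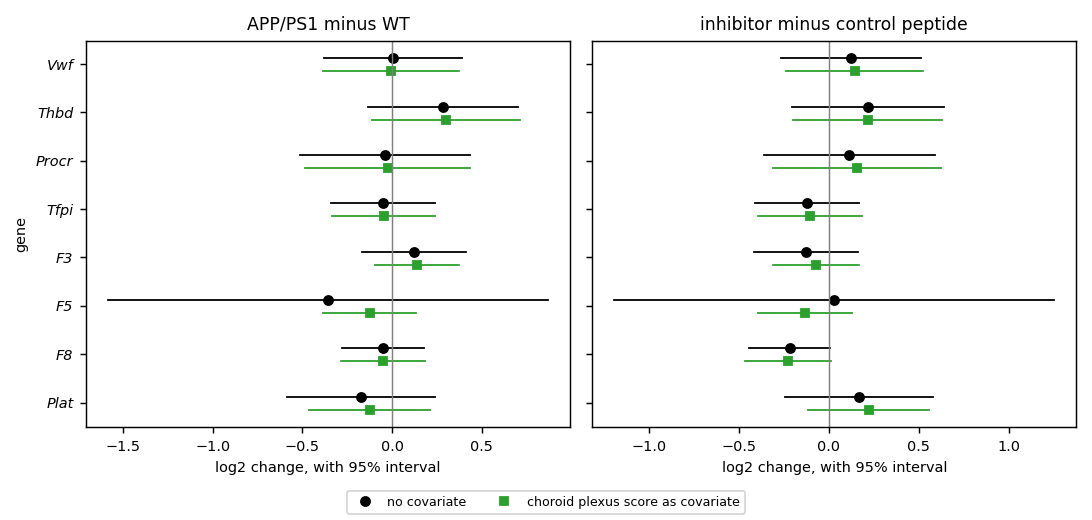
Log2 change of the 8 tested genes (APP/PS1 minus WT, left; inhibitor minus control peptide, right), with 95% intervals, without a covariate (black) and with the choroid plexus score as a covariate (green). Each interval without a covariate includes 0, and that of F5 shortens most with the covariate.

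Of the other pathway genes, 40 were tested and none was called in any comparison by edgeR. The DESeq2 Wald test called none either. For genotype over both peptides, 5 of the 40 had an unadjusted p under 0.05 by edgeR, where 6.38% of all tested genes did. DESeq2 gave 4 of the 40, and its share over all genes was not counted. Factors made by the liver had few counts: of 14 coagulation factors and cofactors 1 was tested, F13a1 (factor XIII subunit A, a macrophage and platelet gene), and Fgb, Fgg, Serpina5 and Cpb2 had 0 counts in all 17 libraries. Of the 10 genes listed as anticoagulant proteins 5 were tested, among them Pros1 (protein S, cofactor of activated protein C), at 32.5 to 58.0 CPM with a genotype change of 0.099 ± 0.12. Receptors (5 of 6 tested), among them F2r, the thrombin receptor PAR1 (0.088 ± 0.16 for genotype), genes for factor assembly and secretion (10 of 10) and the list of Weibel-Palade body and endothelial antiplatelet genes (10 of 10) likewise gave 0 calls.

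Single genes of these lists had small changes for the size of their errors. Gas6, a vitamin K-dependent relative of protein S listed with the anticoagulant proteins, had a genotype change of -0.13 ± 0.13 (SE). For Serpinc1 (antithrombin) and Serpind1 (heparin cofactor II) the genotype change was 0.042 ± 0.23 and 0.035 ± 0.27. Annexin A5 (Anxa5), which covers exposed phosphatidylserine, had an inhibitor change of 0.065 ± 0.13. Among receptors, the genotype change was 0.19 ± 0.19 for S1pr1, 0.21 ± 0.26 for F2rl1 (PAR2) and -0.077 ± 0.13 for Pear1. Vkorc1, which recycles vitamin K, had a genotype change of 0.37 ± 0.30, and Ggcx, the vitamin K-dependent carboxylase, 0.083 ± 0.11. Furin, a proprotein convertase that processes Vwf, was at -0.093 ± 0.092 for genotype and Exoc6, of the exocyst, at 0.041 ± 0.071, while Mia3, which helps load large cargo at the endoplasmic reticulum, had an inhibitor change of -0.11 ± 0.096. Entpd1 (CD39), which degrades ADP, had a genotype change of 0.16 ± 0.13, and the plasminogen receptor Plgrkt an inhibitor change of 0.10 ± 0.084. The lowest unadjusted p among these changes was 0.232, for Vkorc1 (adjusted p = 0.945 by edgeR).

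Of the 9 tested genes of the fibrinolysis list, 3 had an unadjusted p under 0.05 for genotype over both peptides, all with a higher level in APP/PS1, where 3.48% of all tested genes did so; the list's median log2 change was 0.095, against 0.0017 over all genes, with 5 of the 9 above 0 and 4 below. Plaur, the receptor of urokinase, had 0.93 to 6.28 CPM in WT and 3.76 to 12.6 CPM in APP/PS1, and a log2 change of 0.91 ± 0.33 (edgeR, unadjusted p = 0.0132, adjusted p = 0.536). Plau, urokinase itself, was at 2.51 to 6.81 CPM in WT and at 5.22 to 9.56 CPM in APP/PS1, a change of 0.44 ± 0.18 (unadjusted p = 0.0279, adjusted p = 0.671 by edgeR). Serpine2 (protease nexin-1), an inhibitor of urokinase and thrombin, had a change of 0.21 ± 0.09 (unadjusted p = 0.0264, adjusted p = 0.663 by edgeR).

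**Figure D5:**
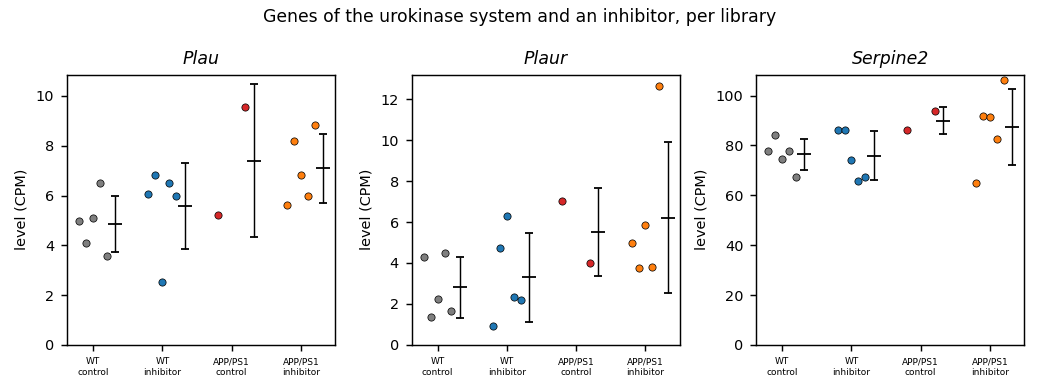
Level in CPM (linear axis) of Plau, Plaur and Serpine2 in the 4 groups; each point is 1 library, with the mean and SD beside them. APP/PS1 libraries lie higher on average for all 3 genes. With each peptide the genotypes overlap, except for Serpine2 with the control peptide. There the 2 APP/PS1 libraries begin at 86.0 CPM and the 5 WT libraries end at 84.2 CPM. How many of all tested genes separate so in that comparison was not counted. None of the 3 genes passes adjustment over all genes.

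Beside these, the 5 microglial markers summed to 169 to 237 CPM in WT and 201 to 382 CPM in APP/PS1. With a microglial score as a covariate, added after the data were seen, the genotype changes were 0.50 for Plaur, -0.15 for Serpine2 and -0.13 for Plau. Only 1 of the 7 APP/PS1 libraries had a score within the WT range, so the covariate and genotype can hardly be separated, and the part of microglia in these values was not tested further. Other partners did not pass adjustment either. Edn1, endothelin-1, a peptide stored in Weibel-Palade bodies, had a genotype change of -0.35 ± 0.17 (unadjusted p = 0.0471), and Klf4, a flow-responsive endothelial transcription factor known to raise Thbd, 0.49 ± 0.23 (unadjusted p = 0.0478), each with an adjusted p of 0.776 by edgeR. Klf2, its relative, was at 0.34 ± 0.30. Nt5e (CD73), which makes the antiplatelet nucleoside adenosine, had an inhibitor change of -0.26 ± 0.11 over both genotypes (unadjusted p = 0.0289, adjusted p = 1.00 by edgeR). Selp, P-selectin, which shares the Weibel-Palade store with Vwf, rested on 1 library: it had 167 counts (10.8 CPM) in replicate 2 of the WT inhibitor group and 0 to 14 counts in the other 16. Its genotype change was -1.67 ± 0.91, and 0.57 without that library. Annexin A2 (Anxa2) and its partner S100a10, which hold Plat and plasminogen on the endothelial surface, had genotype changes of -0.060 ± 0.15 and 0.19 ± 0.13. Serpini1 (neuroserpin), an inhibitor of Plat, had a genotype change of -0.16 ± 0.12. Its inhibitor change over both genotypes was -0.21 ± 0.12 (edgeR, unadjusted p = 0.0817, adjusted p = 0.9999).

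Likeness to each member among all other tested genes with a symbol was the Pearson r of log2 CPM over the 17 libraries, with group means subtracted. The most alike were Slc11a1 for Vwf (0.91), Serpinh1 for Thbd (0.94) and Cdc42ep3 for Procr (0.92). For Tfpi, F3 and F8 they were Plcb3 (0.94), Unc5a (0.94) and Arntl (0.85). For Procr the next was F13a1 (0.90). These are the highest of many correlations and describe likeness only.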

How the data were processed

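RNA-seq of cortical microvessels, isolated by dextran centrifugation per the labels' protocols, gave the 17 libraries. The authors deposited whole-number counts per gene; the submitters' processing notes name cutadapt, STAR, HTSeq and DESeq2 and the builds mm10 and GRCh37, with no versions or roles. The kit was strand-specific, per the labels; the counting's strand setting is not given in the sources used here. Another 20 columns of the table matched no sample and were not used, and 437 genes had no symbol.

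All 17 libraries entered 1 fit in edgeR 4.0.16 (R 4.3.3): filterByExpr, TMM scaling, quasi-likelihood F test, Benjamini-Hochberg over 18753 genes at 0.05. The fit used the 4 groups for single comparisons and the interaction, and an additive model of genotype and peptide for those "over both". Levels are CPM with TMM-scaled library sizes; scores and correlations used log2 CPM with a prior count of 2. Permutation p-values drew 100000 shuffles (within groups, or for F5 within each set split by choroid plexus score), or all orders where exact. Exon lengths came from GENCODE (GRCm38) and promoter windows from RefSeq (GRCm38.p6), found for 6 of the 9 genes. DESeq2 1.42.0, other scalings and filters, and leaving out each library were alternatives. Named partners were up to 4 genes a list by lowest p for genotype and up to 2 for the inhibitor, and 9 partner genes named in any case; 1 partner gene is not reported here. The genes, lists and markers were chosen with earlier results of these data known. The edgeR scripts were tested on simulated data. No libraries were identical, and the least different pair within a group had a chi-square of 5.04 per degree of freedom.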

Additional observations from a re-analysis of the deposited data

Results flagged for a closer look

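Within the groups of 5, the 8 tested genes and the total counts were checked for a single library far from the other 4. Of 27 sets of values 5 had one, where about 1.35 (1 in 20) would be due if values were independent and normally distributed. The levels were on a linear scale, and the F3, Plat and total-count values came from the same library, so 1.35 is only a rough guide. Thbd was at 161 CPM in replicate 4 of the WT control group, against 59.4 to 79.9 CPM in the other 4 libraries. F3 was at 62.6 CPM in replicate 1 of the same group, against 32.1 to 38.6 CPM, and Plat at 176 CPM in that same replicate 1, against 80.6 to 105 CPM. That library also had the most counts, 17862965 against 9356110 to 11342154, and the lowest Ttr of all 17. F8 was at 9.32 CPM in replicate 5 of the WT inhibitor group, against 7.90 to 8.23 CPM.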

How the results depend on the processing

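No clotting gene or named partner passed the adjusted threshold under any alternative, and none of the inhibitor or interaction counts left 0. Counts of genes for genotype were 45 (control peptide), 61 (inhibitor) and 182 (over both) with the DESeq2 Wald test against 10, 34 and 110 by edgeR, 6 for the control peptide with a mean of at least 50 counts, 16 and 53 with the endothelial score as covariate, and 25 over both with the microglial score. Leaving out 1 library gave 4 (without APP/PS1 control replicate 2) to 17 (without WT control replicate 4) for the control peptide (6 without WT control replicate 3 or APP/PS1 control replicate 1), 15 (without WT inhibitor replicate 5 or APP/PS1 inhibitor replicate 2) to 38 for the inhibitor (21, 19 and 17 without WT inhibitor replicates 1 and 3 and APP/PS1 inhibitor replicate 4) and 70 (without APP/PS1 control replicate 2) to 125 over both. Genotype changes near 0 changed sign: Vwf to -0.000218 with DESeq2 size factors, -0.000164 with DESeq2, -0.00474 and -0.00654 with the choroid plexus and endothelial scores; the inhibitor change of F5 went to -0.13 with the choroid plexus score. With the microglial score, in which the genotypes hardly overlap, the genotype changes were Vwf -0.52, Thbd -0.19, F3 -0.25, F5 0.53, F8 0.16, Pros1 -0.37, Serpind1 -0.66, Serpine2 -0.15, Plau -0.13, S1pr1 -0.30, F2rl1 -0.79, F2r -0.56, Ggcx -0.037, Exoc6 -0.058, Klf4 -0.036, Entpd1 -0.30 and Klf2 -0.29; the cause was not tested. Leaving out 1 library, the genotype change ran from -0.13 to 0.10 for Vwf, -0.14 to 0.10 for Procr, -0.11 to 0.0080 for Tfpi, -0.13 to 0.039 for F8, -0.11 to 0.12 for F13a1, -0.069 to 0.14 for Serpinc1, -0.084 to 0.21 for Serpind1, -0.010 to 0.070 for Exoc6, -2.44 to 0.57 for Selp and -0.16 to 0.012 for Anxa2. The inhibitor change ran from -0.026 to 0.20 for Procr, -0.23 to 0.43 for F5, -0.026 to 0.20 for F13a1, -0.00060 to 0.33 for F2rl1 and -0.60 to 2.40 for Selp. The App difference stayed between 0.63 and 0.76.

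No paired analysis was possible because the labels give no replicate number that the groups share. With 2 APP/PS1 control libraries, and no batch, sex or mouse given, small changes of these genes were not detectable, and any batch and the groups cannot be told apart.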
